A study of Mus musculus with 8 samples.

Results

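Messenger RNA levels of 10 genes that encode isoforms of 5 glycolytic enzymes were compared in embryonic mouse ventricle with and without Rps19bp1 in cardiomyocytes. The genes were chosen by symbol as the isoform sets of hexokinase (Hk1, Hk2), phosphofructokinase (Pfkl, Pfkm, Pfkp), enolase (Eno1, Eno3), pyruvate kinase (Pkm) and lactate dehydrogenase (Ldha, Ldhb), and they make up 10 of 52778 rows in the deposited expression table. RNA sequencing covered ventricular heart tissue of mouse embryos at embryonic day 11.5. There were 4 conditional knockout libraries (cKO), from embryos with floxed Rps19bp1 alleles (Rps19bp1 fl/fl) and Xmlc2-Cre +/−, and 4 control libraries, whose alleles the labels do not spell out. Xmlc2-Cre is active in cardiomyocytes, so the other cell types of the ventricle keep the gene. The genotype field lists C57BL/6 WT for all 8 libraries, and no drug was given to either group. The extraction text speaks of cortical neurons where the tissue field names ventricle. The labels call the libraries biological replicates and do not say how many litters they came from.

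Glycolysis splits glucose into pyruvate and yields ATP without oxygen. Hexokinase traps glucose in the cell as a phosphate, phosphofructokinase commits it to the pathway, enolase and pyruvate kinase carry out the last steps, and lactate dehydrogenase interconverts pyruvate and lactate. The early embryonic heart relies on glycolysis and lactate more than the adult heart, which burns mainly fatty acids, and several of these enzymes switch isoforms as heart and skeletal muscle mature.

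The expression unit is TPM, a transcript's share of its library after division by transcript length, scaled to a total common to all libraries, so levels of different genes can be compared per length. How deeply each library was sequenced is unknown from such values. Between 15336 and 15752 rows per library reached 1 TPM. Rps19bp1 itself stood at 15.2, 11.8, 13.7 and 19.2 TPM in cKO replicates 1 to 4 and at 40.9, 44.2, 34.7 and 40.05 TPM in control replicates 1 to 4 (log2 change -1.37, SE 0.127, limma adjusted p = 0.000508). Whether the tissue was heart or neurons was checked with markers, and this check does not tell ventricle from other parts of the heart. The sample titles say heart, and the tissue field ventricle. The median level of 20 cardiomyocyte markers lay between 2294 and 2573 TPM in the 8 libraries, while the median of 15 neuronal markers lay between 0.197 and 0.382 TPM, and Neurod1 and Neurod6 were listed at 0 in all of them. Transcripts of the mitochondrial chromosome took 14.2% ± 1.39 (SD, n = 4) of all TPM in cKO against 11.9% ± 0.350 (SD, n = 4) in control, without overlap. A larger mitochondrial share leaves slightly less of the fixed total for every other gene. The median log2 change of all 15541 tested rows was -0.02.

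All 10 isoforms were expressed well above the filter of a mean of 1 TPM, and all 10 were tested. In cKO libraries 3 of them fell: Hk1 to 81.2%, Pfkp to 78.3% and Eno1 to 82.2% of the control level. The other 7 were not past the threshold, a limma adjusted p under 0.05. Of these, 6 had negative log2 changes, between -0.25 and -0.11, and Ldhb alone had a positive log2 change, 0.13. Over all tested rows 6.4% were called in either direction, 4.23% lower and 2.16% higher. Of all 994 calls, 336 were higher and 658 lower as deposited, a split that became 383 and 380 after quantile normalization, 383 and 419 after median-ratio scaling, and 388 and 396 after rescaling without mitochondrial and globin rows.

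The median log2 change of the 10 isoforms was -0.23, and 9 of the 10 had a negative log2 change, against 55.8% of all tested rows. The same shares were also taken over the 3254 rows with a mean of at least 50 TPM, a level that every isoform here exceeded and that was chosen after seeing the data. Among these rows 10.7% were called in either direction, 8.3% were called lower, 68.4% had a negative log2 change and the median log2 change was -0.06. The ranges of the 2 groups did not overlap for 5 of the 10 isoforms (Hk1, Pfkp, Eno1, Pkm and Ldha), compared with 15.6% of all tested rows and 22.7% of the abundant ones. Summed over the 10 isoforms, cKO libraries held 6278 to 6829 TPM and control libraries 7062 to 7851 TPM. That sum was 0.652% ± 0.0243 (SD, n = 4) of all TPM for the cKO group and 0.753% ± 0.0377 (SD, n = 4) for the control group.

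**Figure D1:**
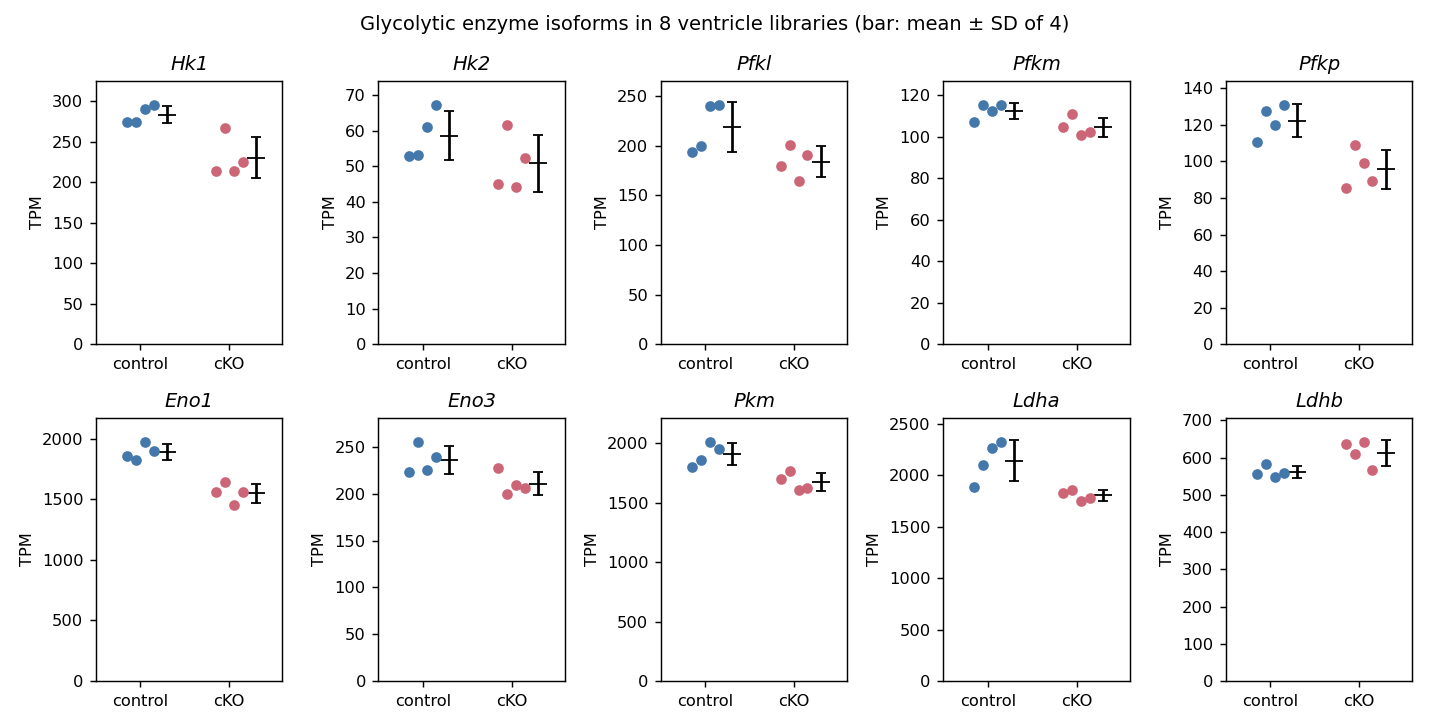
TPM (vertical axes, each starting at 0) of the 10 isoforms in 4 control and 4 cKO libraries, with points for libraries and bars for the mean ± SD of 4. The cKO points lie below all control points for Hk1, Pfkp, Eno1, Pkm and Ldha, and the cKO mean lies above the control mean for Ldhb only.

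By level in control ventricle, the isoforms fell into tiers. Ldha (2144 TPM ± 198, SD, n = 4), Pkm (1910.1 TPM ± 94.2, SD, n = 4) and Eno1 (1887 TPM ± 64.2, SD, n = 4) were the most abundant, and the ranges of their control libraries overlapped. Ldhb followed at 562 TPM ± 15.5 (SD, n = 4), and then Hk1 at 284 TPM ± 10.7 (SD, n = 4). Eno3 and Pfkl came next with overlapping ranges, then Pfkp and Pfkm, whose ranges also overlapped, and Hk2 was the lowest. The ventricle at this age therefore held more transcript of Hk1 than of Hk2, of Eno1 than of Eno3 and of Ldha than of Ldhb in every control library. The same 3 orders held in every cKO library.

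Hexokinase was examined first along the pathway. Hk1 (chr10:62268855-62379920, minus strand, GRCm38), the isoform found in most tissues, stood at 214, 267, 214 and 226 TPM in cKO replicates 1 to 4 and at 274, 275, 290.0 and 295 TPM in control replicates 1 to 4. All cKO libraries were below all control libraries, with cKO replicate 2 close to the controls. The log2 change was -0.31 (SE 0.0715, limma adjusted p = 0.0362). Hk2 (chr6:82725025-82774454, minus strand), the isoform typical of muscle that responds to insulin, stood at 45.0, 61.7, 44.2 and 52.2 TPM in cKO and at 52.9, 53.2, 61.0 and 67.2 TPM in control. Its groups overlapped, since cKO replicate 2 exceeded 3 of the 4 controls (log2 change -0.21, SE 0.112, limma adjusted p = 0.295). The call of Hk1 was kept without cKO replicate 2 (adjusted p = 0.00767) and lost when any other library was left out, with limma adjusted p between 0.0621 and 0.0943. It was also lost after quantile normalization (0.0528), with no filter on low values (0.110) and without the eBayes trend (0.0656). Hk1 overlaps the low antisense row Hk1os, at 1.59 to 3.04 TPM.

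The phosphofructokinase genes encode subunits that assemble into tetramers: Pfkl the liver type, Pfkm the muscle type and Pfkp the platelet type. Pfkp (chr13:6579874-6649060, minus strand) stood at 85.2, 109, 99.3 and 89.0 TPM in cKO and at 111, 127, 119.9 and 131 TPM in control. The groups did not overlap, although the highest cKO and the lowest control library nearly met (log2 change -0.35, SE 0.0824, limma adjusted p = 0.0357). No other isoform of the 10 had a lower fitted change. Pfkl (chr10:77986947-78009807, minus strand) stood at 179.8, 201, 164 and 190.0 TPM in cKO and at 194, 199.7, 240.3 and 241 TPM in control. Control replicates 3 and 4 were high and control replicates 1 and 2 lay within the cKO range (log2 change -0.25, SE 0.0880, limma adjusted p = 0.126). Pfkm (chr15:98092589-98132447, plus strand) stood at 105, 111, 101 and 102 TPM in cKO and at 107, 115, 113 and 115 TPM in control, with the smallest change of the 3 (log2 change -0.11, SE 0.0471, limma adjusted p = 0.208). The call of Pfkp held without cKO replicate 2 or control replicate 1 and was lost without any of the other 6 libraries (limma adjusted p 0.0651 to 0.0878). It was also lost after median-ratio scaling (0.0501), after rescaling without mitochondrial and globin rows (0.0568), after quantile normalization (0.0724), with no filter on low values (0.115) and without the eBayes trend (0.0647). On the opposite strand, Pfkp shares 285 bp with Pitrm1 (71.1 to 82.7 TPM) and Pfkm 981 bp with Senp1 (15.9 to 19.6 TPM). Whether counting used the strand is not given in the sources used here.

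Enolase forms phosphoenolpyruvate. Eno1 (chr4:150236708-150248879, plus strand), the isoform of most tissues, stood at 1561, 1638, 1448 and 1555 TPM in cKO and at 1854, 1827, 1974 and 1893 TPM in control. The groups were well apart, with every cKO library below every control library (log2 change -0.28, SE 0.0571, limma adjusted p = 0.0219). The symbol has a second row on an alternate scaffold that was listed at 0 in all libraries, as do Hk2 and Eno3. Eno1b, a near-identical copy elsewhere in the genome, had its own row at 98.4 to 109 TPM in cKO and 118 to 127 TPM in control (log2 change -0.24, limma adjusted p = 0.0246), and since reads of the 2 genes can be shared, both values are uncertain. Eno3 (chr11:70653125-70662513, plus strand), the muscle isoform, stood at 228, 199.6, 209.8 and 206 TPM in cKO and at 224, 256, 226 and 239 TPM in control. Only cKO replicate 1 reached into the control range (log2 change -0.16, SE 0.0591, limma adjusted p = 0.135). Eno3 shares 3675 bp with Pfn1 on the opposite strand, a row at 967 to 1178 TPM, and the use of strand in counting is not given in the sources used here. The call of Eno1 was lost without cKO replicate 1 (limma adjusted p = 0.0526) and without control replicates 1 (0.0517), 3 (0.0714) and 4 (0.0505). It was also lost after quantile normalization (0.0624) and with no filter on low values (0.0859).

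Pyruvate kinase makes pyruvate and ATP. Pkm (chr9:59656576-59679372, plus strand) yields 2 splice forms, the adult muscle form PKM1 and the embryonic form PKM2, which its single row does not separate. It stood at 1698, 1771, 1607 and 1622 TPM in cKO and at 1805, 1863, 2015 and 1957 TPM in control. The groups did not overlap, yet the change was not past the threshold (log2 change -0.19, SE 0.0593, limma adjusted p = 0.0875). Of 6 splicing factors of the Pkm choice and their relatives, 0 were called by limma and 2 had an unadjusted p under 0.05, a level reached by 23.7% of all tested rows. The member with the smallest p was Hnrnpa2b1 (log2 change -0.17, limma adjusted p = 0.0780), while Ptbp1 had a log2 change of 0.07.

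In lactate dehydrogenase the 2 isoforms had log2 changes of opposite sign. Its tetramers mix the A subunit (Ldha), typical of tissues that make lactate, and the B subunit (Ldhb), typical of adult heart. Ldha (chr7:46842274-46855627, plus strand) stood at 1832, 1862, 1747 and 1776 TPM in cKO and at 1885, 2098, 2265 and 2327 TPM in control. The cKO libraries lay close together below a wider spread of controls (log2 change -0.24, SE 0.0723, limma adjusted p = 0.0756). Ldhb (chr6:142490249-142507957, minus strand) stood at 636, 609.6, 643 and 566 TPM in cKO and at 556, 584, 547 and 560.1 TPM in control. Of its cKO libraries 3 exceeded all controls and replicate 4 did not (log2 change 0.13, SE 0.0529, limma adjusted p = 0.183). Neither gene passed the threshold by itself with all 8 libraries. Without control replicate 1, Ldha did (log2 change -0.30, limma adjusted p = 0.0423).

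Shares within a family do not depend on how a library is scaled, so 6 isoform shares were compared between groups. Ldhb made up 25.8%, 24.7%, 26.9% and 24.2% of Ldha plus Ldhb in cKO replicates 1 to 4 and 22.8%, 21.8%, 19.5% and 19.4% in control replicates 1 to 4. Every cKO library was above every control library, with means of 25.4% ± 1.22 and 20.8% ± 1.69 (SD, n = 4). The difference of 4.53 percentage points gave an exact two-sided permutation p of 0.0286, the smallest that 70 assignments allow, and 0.0857 after Benjamini-Hochberg adjustment over the 6 shares, which does not pass 0.05. Pfkm showed the same separation among the phosphofructokinases, at 28.3%, 26.4%, 27.6% and 26.8% in cKO and 26.1%, 26.0%, 23.8% and 23.7% in control (2.38 percentage points, exact permutation p = 0.0286, adjusted 0.0857). The 2 separated shares belong to the isoform typical of adult heart and to the muscle type. Pfkm itself had a negative log2 change (-0.11), with -0.25 for Pfkl and -0.35 for Pfkp. The shares of the other muscle isoforms, Hk2 and Eno3, overlapped between groups. The adjusted value could fall under 0.05 only if at least 4 of the 6 shares separated.

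The remaining 4 shares overlapped between groups. Hk2 made up 18.0% ± 0.906 (SD, n = 4) of hexokinase in cKO, against 17.1% ± 1.12 (SD, n = 4) in control, with an exact permutation p of 0.286. Eno3 made up 12.0% ± 0.892 (SD, n = 4) of the 2 enolases in cKO, against 11.1% ± 0.862 (SD, n = 4) in control, with an exact permutation p of 0.171. The adjusted values of these 4 shares lay between 0.30 and 0.857. Pfkp had a share lower by a mean of 2.06 percentage points in cKO, while Pfkl stood at 47.8% ± 2.03 (SD, n = 4) and 48.1% ± 2.52 (SD, n = 4), with an exact permutation p of 0.857.

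**Figure D2:**
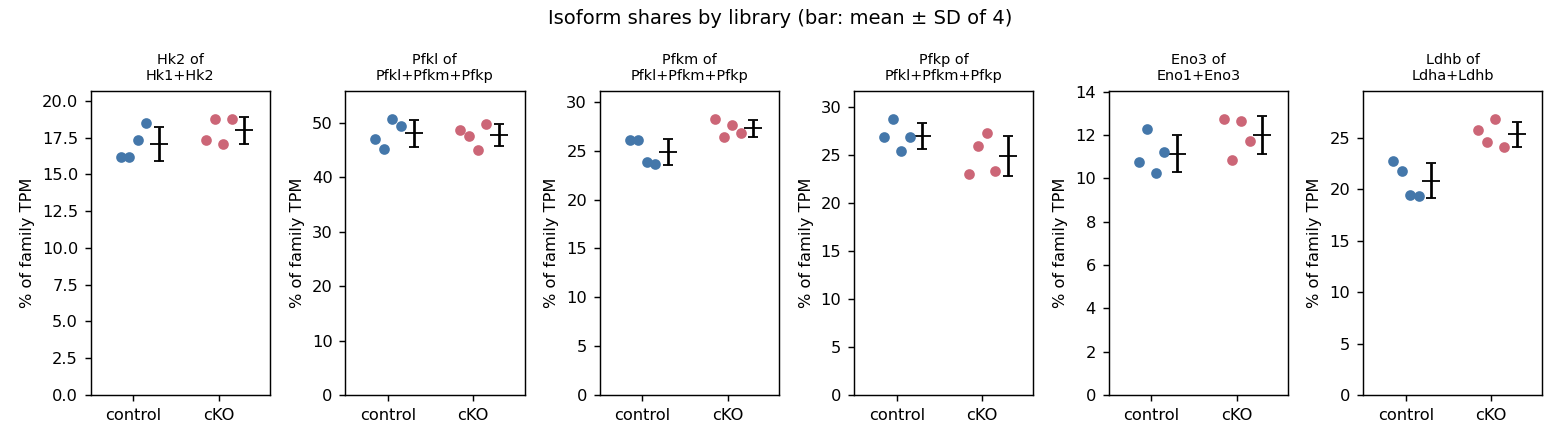
Share of each isoform in the summed TPM of its enzyme family (percent, axes starting at 0) by library, with bars for the mean ± SD of 4. Only the Ldhb share (25.4% against 20.8%) and the Pfkm share (27.3% against 24.9%) separate the cKO libraries from the control libraries.

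Promoters are shown for the 3 isoforms that fell and for the lactate dehydrogenase pair, because hypoxia-inducible factors are known regulators of several glycolytic genes and bind a short core. The sequences are the 250 bases before the most upstream of the starts that the promoter table made from RefSeq (GRCm38.p6) holds for each gene, 5′ to 3′ on the gene's strand. For Eno1 and Ldhb that start is the end of the gene's row, while it lies 3530 bp inside the row for Ldha, 289 bp for Pfkp and 12 bp for Hk1, so these windows are not before the outermost start of the gene. Capitals mark ACGTG and GCGTG on either strand, the 2 forms of the hypoxia response core. Which starts are used in these hearts was not measured here.
Ldha, chr7:46845554-46845803, plus strand: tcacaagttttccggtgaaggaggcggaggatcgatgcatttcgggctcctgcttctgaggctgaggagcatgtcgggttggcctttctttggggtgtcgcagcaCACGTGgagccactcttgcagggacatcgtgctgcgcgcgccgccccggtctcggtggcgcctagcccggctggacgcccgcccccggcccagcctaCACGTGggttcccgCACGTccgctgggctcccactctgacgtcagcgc
Ldhb, chr6:142507958-142508207, minus strand: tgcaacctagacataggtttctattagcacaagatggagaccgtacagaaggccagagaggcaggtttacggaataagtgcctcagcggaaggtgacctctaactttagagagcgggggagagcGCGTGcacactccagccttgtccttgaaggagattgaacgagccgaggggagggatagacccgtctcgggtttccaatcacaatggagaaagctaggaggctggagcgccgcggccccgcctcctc
Eno1, chr4:150236458-150236707, plus strand: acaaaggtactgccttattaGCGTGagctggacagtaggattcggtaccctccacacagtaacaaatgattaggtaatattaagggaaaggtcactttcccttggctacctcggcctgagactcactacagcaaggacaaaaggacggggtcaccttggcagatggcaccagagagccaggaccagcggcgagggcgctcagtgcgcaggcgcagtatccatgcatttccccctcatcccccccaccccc
Pfkp, chr13:6648772-6649021, minus strand: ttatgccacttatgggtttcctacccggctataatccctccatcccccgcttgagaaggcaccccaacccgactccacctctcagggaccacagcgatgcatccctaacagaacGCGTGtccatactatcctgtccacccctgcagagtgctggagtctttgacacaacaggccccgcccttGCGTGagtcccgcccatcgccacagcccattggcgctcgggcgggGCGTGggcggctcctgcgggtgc
Hk1, chr10:62379909-62380158, minus strand: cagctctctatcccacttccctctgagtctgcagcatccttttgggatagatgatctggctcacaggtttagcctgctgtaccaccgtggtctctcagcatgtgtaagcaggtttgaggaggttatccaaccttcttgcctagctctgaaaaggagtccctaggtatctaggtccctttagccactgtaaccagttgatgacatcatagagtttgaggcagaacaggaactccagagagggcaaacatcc
The Ldha window held 3 separate capital runs, 2 of them the palindrome CACGTG, which is also the E-box that Myc and related factors bind. It contains ACGTG on both strands. The Ldhb window held 1 run and none of the form ACGTG. The Eno1 window held 1 run, the Pfkp window 3, all GCGTG, and the Hk1 window none.

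All 10 isoforms were matched in the promoter table, with the Eno3 window before a start 4051 bp inside its row. ACGTG on either strand occurred in 3 of their 10 windows (Hk2, Pfkm and Ldha) and in 16.5% of 27025 windows, 1 for each gene. GCGTG occurred in 5 of the 10 (Pfkl, Pfkp, Eno1, Eno3 and Ldhb) and in 28.3% of all windows. CACGTG occurred in 2 of the 10 (Pfkm and Ldha) and in 6.04% of all windows. Hk1, which fell, had no core in its window, and Ldha, with the most ACGTG matches, was not past the threshold. More than 1 window is held for Hk1 (2), Pfkm (4), Eno1 (3), Pkm (2) and Ldha (2), and only the most upstream was searched. Whether a core bears on any change was not tested. A match is a description of letters and not a measured binding site.

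The other enzymes of the pathway were then placed beside the isoforms. Of 19 listed genes 12 were expressed enough to be tested. By limma 0 of them were called, 7 had an unadjusted p under 0.05 (23.7% of all tested rows), and the median log2 change was -0.14 against -0.02 for all tested rows. Aldoa (aldolase), the most abundant, stood at 2256, 2330, 2115 and 2293 TPM in cKO and at 2393, 2564, 2760.0 and 2655 TPM in control (log2 change -0.20, limma adjusted p = 0.0875). Its groups did not overlap, nor did those of Pgk1, Pgam1 and Gapdhs, the last of which was higher in cKO. These 4 of 12 stand beside 15.6% of all tested rows and 22.7% of the abundant ones. Gpi1 (-0.15), Tpi1 (-0.20), Pgk1 (-0.21) and Pgam1 (-0.24), which catalyse the isomerase, phosphoglycerate kinase and mutase steps, had negative log2 changes with limma adjusted p between 0.0687 and 0.161. Hkdc1 (-0.13), Aldoc (-0.39), Gapdh (-0.11) and Bpgm (-0.12) were also negative and Gapdhs (0.12) and Eno2 (0.19) positive, with limma adjusted p between 0.137 and 0.730. The Gapdh row held only 225 TPM ± 50.8 (SD, n = 4) in control, and control replicate 2 stood apart at 301 TPM. Reads of this gene can be shared with its many processed pseudogenes, so its level is uncertain.

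Phosphoglycerate mutase, chosen for mention after its values were seen, had a pattern like that of lactate dehydrogenase. Pgam1, the brain-type and general isoform, stood at 649, 677, 577 and 636 TPM in cKO and at 681, 734, 774 and 814 TPM in control. Pgam2, the muscle isoform, stood at 535, 563, 524 and 458 TPM in cKO and at 447, 469, 461 and 439.6 TPM in control (log2 change 0.19, limma adjusted p = 0.106). Pgam2 thus made up 45.0% ± 2.36 of the pair in cKO and 37.7% ± 2.04 in control (SD, n = 4), without overlap. No test is given for a share chosen in this way.

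**Figure D3:**
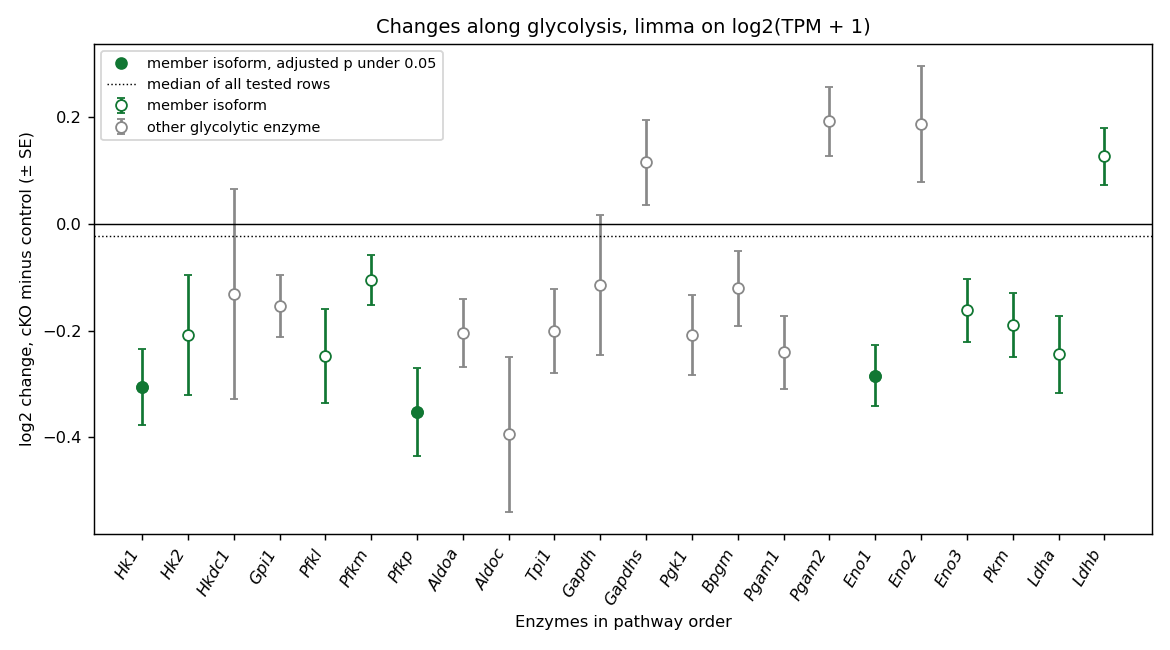
Fitted log2 change in cKO against control (vertical axis, ± SE, limma on log2(TPM + 1)) for the 10 isoforms (green) and 12 other tested glycolytic enzymes (grey), in pathway order. Filled points mark Hk1, Pfkp and Eno1, which passed an adjusted p of 0.05, and only Gapdhs, Pgam2, Eno2 and Ldhb lie above 0.

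Among 10 tested genes of glucose and lactate transport, 1 was called, and it was lower, a share near that of all tested rows (6.4% in either direction) and of the abundant rows (10.7%). Slc16a1, the monocarboxylate transporter MCT1 that carries lactate and pyruvate, stood at 65.7, 75.5, 69.4 and 70.01 TPM in cKO and at 81.1, 86.2, 82.9 and 84.8 TPM in control. The groups were well apart (log2 change -0.25, SE 0.0504, limma adjusted p = 0.0212). Slc16a3, the lactate exporter MCT4, stood at -0.34 on the log2 scale of change (limma adjusted p = 0.112) and Slc2a1, the glucose transporter GLUT1, by -0.26 (limma adjusted p = 0.119), values that did not pass the threshold. The median of this list was 0.01. The number called was 0 after quantile normalization and without cKO replicates 1 or 3 or control replicates 2, 3 or 4, and 2 without cKO replicate 2.

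Lists for control of the pathway and for its outlets held no called gene by limma. Of 5 tested genes that set the level of fructose bisphosphate, including the p53 target Tigar (log2 change 0.07, limma adjusted p = 0.550), 0 had an unadjusted p under 0.05, and the smallest p belonged to Pfkfb2 (0.14, adjusted p = 0.321). Of 14 genes of pyruvate entry into mitochondria 2 had an unadjusted p under 0.05, led by Pdk1 (-0.22, limma adjusted p = 0.139), which inhibits pyruvate dehydrogenase. Of 7 pentose phosphate genes 3 did, led by Rpia (-0.30, limma adjusted p = 0.0583). Of 20 tested hypoxia response genes outside glycolysis 2 did, with a median log2 change of -0.05. The shares for pyruvate entry and hypoxia response are below the 23.7% of all tested rows with such a p. The hypoxia gene with the smallest p was Egln1 (-0.26, limma adjusted p = 0.132), an oxygen sensor, and Hif1a itself had a log2 change of -0.10. Vegfa, a classic target, stood at 0.04 (limma adjusted p = 0.868).

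Other cell types of the ventricle also express these enzymes, and in bulk tissue fewer cells of a type and less RNA per cell cannot be told apart. The summed level of 20 cardiomyocyte markers was 62263 to 65300 TPM in cKO and 62445 to 67853 TPM in control. Of the 20, 2 were called, Nkx2-5 (log2 change -0.48) and Tbx5 (-0.24), both lower. Over all tested rows 6.4% were called, 2.16% higher and 4.23% lower, and among the abundant rows 10.7% were called. The median of the list was -0.05, and 4 of the 20 had a positive log2 change. Of these, Nppa stood at 4882 to 7403 TPM in cKO and 3723 to 4561 TPM in control, without overlap, and was not called. The summed level of 12 epicardial markers was 507 to 623 TPM in cKO and 442 to 502 TPM in control. Of the 12, 6 were called, all higher, against 2.16% of all tested rows. They were led by Tcf21 (log2 change 0.52), Tbx18 (0.31), Gpm6a (0.42) and Upk3b (0.36). The summed level of 12 mesenchymal markers was 2452 to 2829 TPM in cKO and 1922 to 2294 TPM in control. Of the 12, 5 were called, all higher, against the same 2.16%. They were led by Col3a1 (log2 change 0.40), Col1a2 (0.47), Dcn (0.52) and Fbln2 (0.46). The sum of erythroid markers was 2116 to 4495 TPM in cKO and 2338 to 8464 TPM in control. By limma 0 of 14 tested erythroid markers were called and 2 had an unadjusted p under 0.05 (23.7% of all tested rows), with the smallest p for Rhd (log2 change -0.71). All 14 had negative log2 changes (median -0.38), against 55.8% of all tested rows. Endocardial and endothelial markers (1149.96 to 1315 TPM against 1055 to 1173 TPM) and macrophage markers (76.6 to 129.9 TPM against 72.5 to 101 TPM) had overlapping sums and 0 members called by limma. An unadjusted p under 0.05 was reached by 6 of 14 endothelial and 1 of 8 tested macrophage markers (23.7% of all tested rows). Log2 changes were positive for 12 of the 14 (median 0.11) and for 7 of the 8 (median 0.38). The smallest p belonged to Npr3 (log2 change 0.25) in the first list and to Csf1r (0.47) in the second. Among the neuronal markers, 4 of which were tested, Nefl was called lower at 2.49 TPM in cKO and 3.93 TPM in control. No marker of these lists other than the 2 neuronal genes given above was at 0 in every library. Their part in the isoform changes was not tested.

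The libraries differed among themselves in a way shared by many isoforms. Within cKO, replicate 2 was the highest library for 8 of the 10 isoforms and replicate 3 the lowest for 6. Within control, replicate 1 was the lowest for 8 and replicate 4 the highest for 6. As deviations from group means over the 8 libraries, Hk1 and Hk2 varied together (r = 0.93), as did Pkm with Ldha (r = 0.84) and with Eno1 (r = 0.84), whereas Ldhb correlated negatively with Pfkl (r = -0.51) and showed little relation to Ldha (r = -0.06). Eno3 likewise correlated negatively with Hk1 (r = -0.51), Hk2 (-0.46) and Eno1 (-0.38). With Ldhb it correlated positively (0.58), and weakly so with Pfkm (0.16) and Ldha (0.15). These correlations describe 8 points that share a library and a fixed TPM total. The genes most like each isoform by the same measure, out of 8998 with a mean of at least 10 TPM, were Cep68 for Hk1 (r = 0.99), Tmem222 for Hk2 (0.99), Tbc1d1 for Pfkl (0.98), Pmpca for Pfkm (0.96), Phf20 for Pfkp (0.97), Card19 for Eno1 (0.99), Ntan1 for Eno3 (0.92), Fam168a for Pkm (0.98), Tcf25 for Ldha (0.99) and Rer1 for Ldhb (0.95). The next most alike genes were Ipo8, Ppme1, Tgfbi, Masp1, Sspn, Pus3, Cep44, Edrf1, Spry1 and Wdr35, in the same order. These genes were picked as the highest of 8998 correlations over only 8 points, so high values can arise from the search alone.

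Signs of the log2 changes were kept more often than calls, in part because many alternatives could not change them. The 17 alternatives covered pseudocounts, filters, scaling, the variance model, a replicate block and the removal of each library. The filters, the variance model and the replicate block cannot move the fitted change, so the signs kept under them carry no information. For the 5 isoforms whose groups did not overlap, the pseudocounts and the removals could not change the sign either. Under the pseudocounts, the scalings and the removals each of the 10 isoforms kept its sign. The number of isoforms called ranged from 0 to 3. Eno1 stayed past the threshold under 10 alternatives, Hk1 under 6 and Pfkp under 6. Ldhb ranged from 0.10 to 0.16 on the log2 scale and was past the threshold under none.

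**Figure D4:**
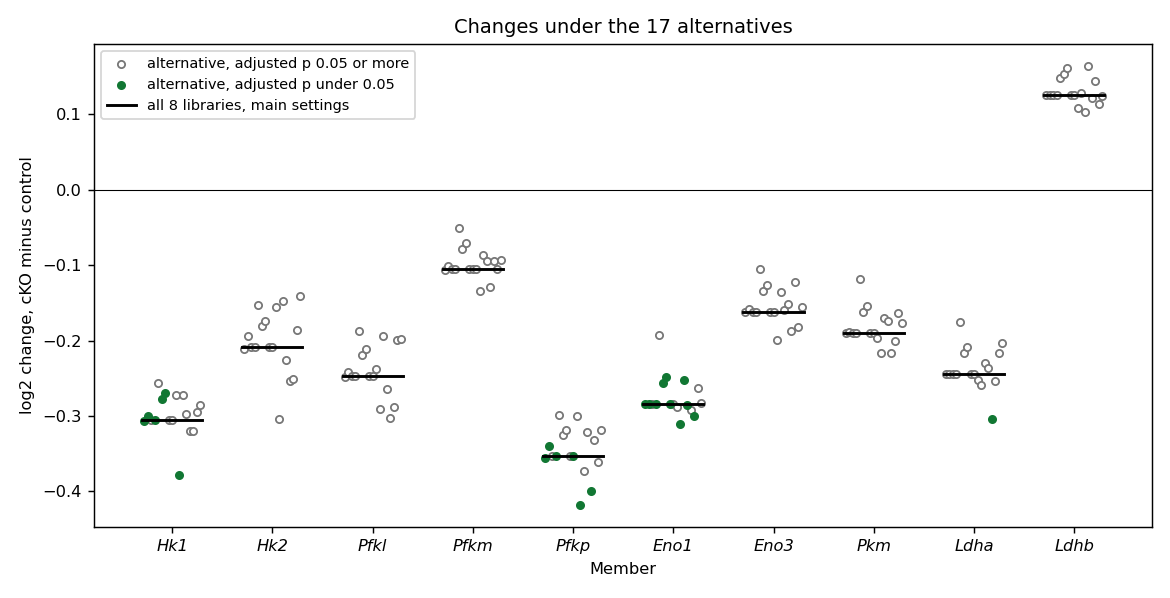
Log2 change in cKO against control (vertical axis) of the 10 isoforms with all 8 libraries under the main settings (black lines) and under 17 alternatives (points, filled green where the limma adjusted p was under 0.05). No point crosses 0, while the points of Hk1, Pfkp and Eno1 fall on both sides of the significance threshold.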

How the data were processed

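RNA sequencing libraries of embryonic ventricle, 4 cKO and 4 control, were analysed. The deposited values are TPM, computed by the authors, and each of the 8 columns sums to 1000000. The submitters' processing notes name FastQC, Trim Galore 0.6.7, HISAT2 2.2.1, StringTie 2.2.1, featureCounts, DESeq2 and the build GRCm38, and the tool that gave the TPM, the annotation and the use of strand are not given in the sources used here. All 10 isoforms had the same coordinates in the RefSeq table of GRCm38.p6. Read depth cannot be recovered from TPM, so precision is that between libraries.

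Groups and replicate numbers came from the sample titles. Rows with a mean of at least 1 TPM over the 8 libraries (15541) were fitted as log2(TPM + 1) with limma 3.58.1 in R 4.3.3 (lmFit, then eBayes with its trend option, two-sided tests). The Benjamini-Hochberg adjustment ran over all of these rows. A fold change on this scale understates the change of low genes. The isoforms and gene lists were chosen with earlier results of these data known. Isoform shares were compared by an exact permutation test over 70 assignments. Named genes were the 10 isoforms, Rps19bp1, tested glycolytic enzymes, up to 4 called members of each other list or else the member with the smallest p, and for each isoform the 2 genes most like it, with exceptions stated where they occur and a few well-known members added for reference. Alternatives were a pseudocount of 0.1 or 5, no filter or a mean of at least 5 TPM, 3 scalings, eBayes without a trend, a replicate block and leaving out each library. The fit was tested on simulated data with independent noise for each row, which leaves out variation shared by genes within a library. Figures were drawn with matplotlib 3.10.9.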

Additional observations from a re-analysis of the deposited data

How the results depend on the processing

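With no filter on low values 347 genes and 0 isoforms were called, and with eBayes without a trend 609 genes and 1 isoform. Quantile normalization left 0 isoforms and 0 transport genes called. Calls on single isoforms were lost, with the cause not tested, in these cases. Hk1 lost its call with no filter (log2 change -0.31), after quantile normalization (-0.26), without the trend (-0.31) and with the replicate block (-0.31). Pfkp lost it with no filter (-0.35), after quantile normalization (-0.30), after median-ratio scaling (-0.33), after rescaling without mitochondrial and globin rows (-0.32) and without the trend (-0.35). Eno1 lost it with no filter (-0.28), after quantile normalization (-0.19) and with the replicate block (-0.28).

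The replicate number did not pair the libraries, since deviations of same-numbered libraries correlated between -0.09 and 0.07. Used as a block, it gave 420 called genes and 1 called isoform.

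Leaving out single libraries gave 388 to 936 called genes, 0 to 3 called isoforms, 0 to 1 called among the other glycolytic enzymes, 0 to 2 among transport genes, 0 to 1 among pentose phosphate genes and 0 to 1 among hypoxia response genes. The log2 change then ranged from -0.38 to -0.27 for Hk1, from -0.42 to -0.30 for Pfkp, from -0.31 to -0.25 for Eno1 and from -0.30 to -0.20 for Ldha. The number of called isoforms was 0 without cKO replicate 1, control replicate 3 or control replicate 4, and 1 without cKO replicate 3, cKO replicate 4 or control replicate 2. The difference in the Pfkl share, which had no call, ranged from -1.31 to 0.596 percentage points and changed sign to 0.596 without cKO replicate 3, 0.583 without control replicate 3 and 0.126 without control replicate 4. The differences in the Ldhb share (4.02 to 5.17 percentage points) and the Pfkm share (1.97 to 2.77) could not change sign, since their groups did not overlap. For each of them the adjusted exact permutation p ranged from 0.0857 to 0.257. Counting all rows of a symbol changed no share.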
